A study of Homo sapiens with 16 samples.

Results

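Transcripts of 10 members of the BCL2 family of apoptosis regulators (3 pro-survival, 5 BH3-only and 2 effectors) were picked by gene symbol from the 35606 genes measured in each library, and followed through treatment with an mSWI/SNF degrader. The family decides whether the outer mitochondrial membrane stays intact when a cell is under stress. Pro-survival members (BCL2, BCL-xL from BCL2L1, MCL1) hold the membrane-permeabilizing effectors BAX and BAK in check, and the BH3-only members (BIM from BCL2L11, PUMA from BBC3, NOXA from PMAIP1, BID, BMF) bind the pro-survival proteins or activate the effectors. Plasma cell malignancies are known for their reliance on MCL1, and small cell lung cancers often carry high BCL2.

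RNA sequencing was done on 16 bulk libraries from 4 established human cell lines, with 2 libraries per line and arm. Of the lines, NCI-H526 and NCI-H1048 stand for small cell lung cancer that expresses POU2F3 (SCLC-P), whereas NCI-H929 and MM1.S come from multiple myeloma. Each line received DMSO, the solvent control, or 1 µM AU-15330, a PROTAC that sends the mSWI/SNF ATPases SMARCA2 and SMARCA4, with PBRM1, to the proteasome. The sample titles give 24 h of exposure, whereas the treatment protocol gives 12 to 24 h and the design text 4 to 12 h. For NCI-H526 and NCI-H1048, legends of the study name 12 h in one place and 24 h in another, which leaves the exposure time uncertain. Cells were grown in culture, and per the labels the arms of a line differed in treatment only. In bulk RNA, fewer cells with a transcript and less of it per cell cannot be told apart.

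Values are the authors' scaled values, close to counts per 1e+06 reads, and estimated depth ran from 12.0 to 43.0 M reads per library (M stands for 1e+06), lowest in NCI-H929 at 12.0 to 14.1 M. Ribosomal RNA was depleted for the MM1.S libraries and poly(A) RNA selected for all others, so each AU-15330 effect was taken within its own line, and no DMSO library served in more than 1 effect. Of the markers, POU2F3 and IRF4 matched the labels. POU2F3 averaged 1284 and 567.1 in the DMSO libraries of NCI-H526 and NCI-H1048 and under 1 in both myeloma lines. IRF4, a plasma cell factor, averaged 1835 and 1504 in NCI-H929 and MM1.S. Some other markers were less exclusive in DMSO. YAP1, a marker of another SCLC subtype, averaged 80.92 in NCI-H1048, where the tuft-type marker TRPM5 averaged 0.1398. The plasma cell markers SDC1 and XBP1 averaged 36.89 and 93.38 in NCI-H526 and 119.6 and 66.81 in NCI-H1048. Both were higher in the myeloma lines, at 590.7 and 2752 in NCI-H929 and 760.1 and 1037 in MM1.S. With AU-15330, 7 of 8 tuft-type markers in NCI-H526, 7 of 7 tested in NCI-H1048 and 7 of 8 plasma cell markers in each myeloma line were lower. Of all tested genes, 29.8%, 18.2%, 37.6% and 40.2% were likewise lower in NCI-H526, NCI-H1048, NCI-H929 and MM1.S. The exceptions rose on the log2 scale, GFI1B in NCI-H526 by 0.56 and XBP1 in NCI-H929 by 0.65 and in MM1.S by 1.39. In MM1.S the falls ran from -0.18 for PRDM1 to -2.27 for POU2AF1, with IRF4 at -0.29. Of other markers, all 3 epithelial genes rose in NCI-H526, where 29.0% of all tested genes did, and 2 of 3 fell in NCI-H1048. YAP1 rose from 5.63 to 31.1 in NCI-H929 and from 4.05 to 12.2 in MM1.S. The part of these changes in the member values was not tested. AU-15330 acts on protein, so the transcripts of SMARCA2, SMARCA4 and PBRM1 check nothing, and they moved by at most 0.35 on the log2 scale.

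In the myeloma lines, pro-survival and BH3-only members each moved in both directions, and the largest changes of the family were there. Large changes were also more common there over all tested genes. Calls of at least 2-fold made up 27.8% of genes in NCI-H929 and 23.9% in MM1.S, against 6.93% in NCI-H526 and 4.48% in NCI-H1048. BCL2 and BID were lower in all 4 lines. PMAIP1 was lower in both SCLC-P lines; its values were also lower in the treated myeloma libraries, but there it was tested only because its DMSO level was high enough, so its fall there supports nothing. MCL1, BCL2L11 and BBC3 rose in both myeloma lines, whereas MCL1 fell in NCI-H526 and BBC3 was not called in either SCLC-P line. A gene was called where the limma test gave a Benjamini-Hochberg adjusted p under 0.05 over all genes tested in the line. Changes are differences of log2(value + 0.5) with their standard errors (SE), and folds are taken from them.

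In NCI-H526, 3 members rose and 4 fell, where 58.8% of 13685 genes were called (29.0% higher, 29.8% lower). The arms did not overlap for 9 members, against 79.3% of all genes. In NCI-H1048, 1 rose and 4 fell, where 35.1% of 13691 genes were called (16.9% higher, 18.2% lower), and the arms were apart for 7 members against 68.2% of genes. These 5 calls became 3 with no filter on low genes, 3 and 2 without DMSO library 1 or 2, and 7 and 6 without AU-15330 library 1 or 2. In NCI-H929, 4 rose and 5 fell, where 76.0% of 13115 genes were called (38.4% higher, 37.6% lower), and the arms were apart for 9 members against 87.8%. In MM1.S, 3 rose and 7 fell, where 74.1% of 13838 genes were called (33.9% higher, 40.2% lower), and the arms were apart for all 10 against 86.9%. Against so broad a background no count of calls sets the family apart, and the account below gives the size and direction of single genes. The median log2 change over the 10 members was -0.02, -0.16, -0.23 and -0.44 in NCI-H526, NCI-H1048, NCI-H929 and MM1.S, beside 0.00, 0.01, 0.04 and -0.03 over all tested genes. In NCI-H929 and MM1.S, the falls, the arms apart and the medians all include PMAIP1, tested there through its DMSO libraries alone. Its fall in those lines supports nothing. Rescaling to total counts moved the all-gene median to 0.25 in NCI-H929 and 0.19 in MM1.S, and the higher share of all calls from 50.5% to 62.7% and from 45.7% to 60.0%.

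**Figure D1:**
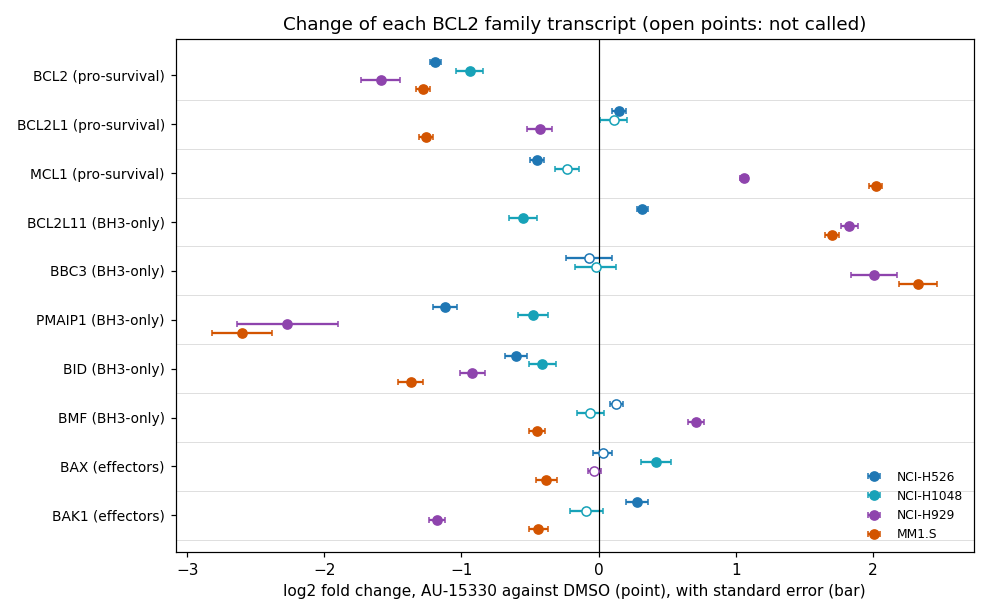
Log2 fold change of each BCL2 family transcript, AU-15330 against DMSO, with its standard error (bar), by cell line. Filled points were called and open points were not; BCL2 and BID lie left of 0 in all 4 lines, as does PMAIP1, which in the myeloma lines was tested through its DMSO libraries alone, while MCL1, BCL2L11 and BBC3 reach 1.06 to 2.33 in the myeloma lines.

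Promoter sequence is shown for 4 members, of which BBC3 and BCL2L11 rose most among the BH3-only genes in the myeloma lines and PMAIP1 and BCL2 had lower values with AU-15330 in every line. The windows are from RefSeq on GRCh38.p14 and run from 250 bases before to 50 bases after the annotated start, 5′ to 3′ on the strand of the gene; 9 members had a window, 15 in all. Capitals mark matches, on either strand, to the searched motifs, which were ATGCAAAT (octamer), a repeat bound by interferon regulatory factors (2 copies of GAAA with any 2 bases between them), TGTTTAC (forkhead), CACGTG (E-box), TGACGTCA (cyclic AMP response element) and GGGGCGGGG (GC box).
BBC3, chr19:47232618-47232917, minus strand: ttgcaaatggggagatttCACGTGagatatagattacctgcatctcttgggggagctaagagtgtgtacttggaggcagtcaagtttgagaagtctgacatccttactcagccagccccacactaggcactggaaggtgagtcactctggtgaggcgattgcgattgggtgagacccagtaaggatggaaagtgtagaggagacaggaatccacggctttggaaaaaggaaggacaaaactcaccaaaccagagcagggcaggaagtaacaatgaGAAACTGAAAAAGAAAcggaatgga
BCL2L11, chr2:111120664-111120963, plus strand: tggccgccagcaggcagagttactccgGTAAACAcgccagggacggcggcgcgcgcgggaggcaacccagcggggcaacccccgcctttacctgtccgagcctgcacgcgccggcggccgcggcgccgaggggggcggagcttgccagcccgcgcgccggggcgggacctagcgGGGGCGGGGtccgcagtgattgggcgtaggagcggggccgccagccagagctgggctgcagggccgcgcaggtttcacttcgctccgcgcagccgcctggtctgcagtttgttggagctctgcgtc
PMAIP1, chr18:59899746-59900045, plus strand: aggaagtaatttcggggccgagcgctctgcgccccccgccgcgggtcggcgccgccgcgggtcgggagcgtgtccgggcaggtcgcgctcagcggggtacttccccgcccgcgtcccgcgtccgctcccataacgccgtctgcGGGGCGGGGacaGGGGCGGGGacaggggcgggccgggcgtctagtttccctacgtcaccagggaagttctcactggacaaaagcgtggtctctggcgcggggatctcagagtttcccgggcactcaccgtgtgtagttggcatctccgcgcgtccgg
BCL2, chr18:63319720-63320019, minus strand: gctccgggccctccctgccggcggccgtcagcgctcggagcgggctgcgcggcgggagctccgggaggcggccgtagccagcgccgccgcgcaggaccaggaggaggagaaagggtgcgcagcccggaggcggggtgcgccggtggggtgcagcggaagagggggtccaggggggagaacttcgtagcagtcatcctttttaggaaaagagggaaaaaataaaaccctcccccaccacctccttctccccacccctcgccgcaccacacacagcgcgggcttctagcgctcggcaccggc
The BBC3 window held 2 matches to the interferon regulatory factor repeat, GAAACTGAAA and GAAAAAGAAA, which overlap each other, at bases 26 to 35 and 32 to 41 after the start, and 1 E-box. Of all 35116 windows, 3.57% held this repeat and 7.26% an E-box. The BCL2L11 window held 1 forkhead match, from base -223 to -217 and read as GTAAACA on the gene's strand, and 1 GC box; 3.42% and 15.7% of all windows held these. The PMAIP1 window held 2 GC boxes and the BCL2 window none of the 6 motifs, while a BAX window, not shown, held 4 E-boxes. No member window held the octamer or the cyclic AMP response element, which 1.77% and 1.85% of all windows held. MCL1 had no window and was not searched. The motifs were chosen with the gene changes known, and a match is a description of letters only.

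Among the pro-survival members, BCL2 (chromosome 18, 63123346 to 63320128, minus strand, GRCh38), the founding member and the target of venetoclax, fell in all 4 lines. In NCI-H526 it read 137.8 and 138.8 in DMSO and 60.37 and 60.62 with AU-15330, a log2 change of -1.19 ± 0.04 (SE; adjusted p = 7.5e-09), or 2.28-fold lower. In NCI-H1048 it read 143.3 and 140.1 against 69.95 and 77.64 (-0.94 ± 0.10, adjusted p = 3.6e-07). Every treated library of both SCLC-P lines thus lay well under every DMSO library. In NCI-H929, where BCL2 was low from the start, it read 28.10 and 24.56 against 9.589 and 7.362 (-1.59 ± 0.14, adjusted p = 1.5e-07), or 3.01-fold lower. In MM1.S it read 240.6 and 252.7 against 102.4 and 100.8 (-1.28 ± 0.05, adjusted p = 6.2e-09), or 2.42-fold lower. No arms overlapped in either myeloma line. In NCI-H526, 3.85% of all tested genes had a change as low or lower, and in MM1.S 9.49% did.

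BCL2L1 (chromosome 20, 31664452 to 31723989, minus strand), which encodes BCL-xL and by splicing its short pro-death form, split the lines. MM1.S libraries read 362.4 and 378.3 in DMSO and 154.9 and 153.8 with AU-15330, and fell 2.39-fold (-1.26 ± 0.05, adjusted p = 4.8e-09). In NCI-H929 it read 55.33 and 67.42 against 42.44 and 47.93, a smaller fall of 1.35-fold (-0.43 ± 0.09, adjusted p = 5.7e-04). In NCI-H526 it read 69.89 and 69.70 against 75.51 and 79.98 (0.15 ± 0.05, adjusted p = 0.015), a rise that was lost in 1 fit of all 16 libraries (adjusted p = 0.17), without a variance trend (0.07) and without either DMSO library (0.089 and 0.095). In NCI-H1048 the arms overlapped, at 58.68 and 54.87 against 65.15 and 57.86 (0.11 ± 0.10, adjusted p = 0.42). The values sum over transcripts, so long and short forms were not separated.

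MCL1 (chromosome 1, 150560895 to 150579738, minus strand), the short-lived guardian on which plasma cells depend, rose in the myeloma lines and not in the SCLC-P lines. NCI-H929 libraries read 2377 and 2417 in DMSO and 4999 and 4972 with AU-15330, a 2.08-fold rise (1.06 ± 0.03, adjusted p = 3e-12). In MM1.S it read 508.5 and 542.1 against 2131 and 2120, a 4.04-fold rise (2.02 ± 0.05, adjusted p = 3.4e-10), and 1.43% of tested genes there had a change as high or higher. Treated and DMSO libraries were far apart in both lines. In NCI-H526 MCL1 read 417.9 and 427.7 against 298.7 and 320.6 and fell 1.37-fold (-0.45 ± 0.05, adjusted p = 1.6e-05). In NCI-H1048 it read 343.6 and 351.7 against 294.3 and 299.7, arms apart, but the change of -0.23 ± 0.09 was not called (adjusted p = 0.062). That call turned under 4 alternatives, with adjusted p from 0.0039 in 1 fit of all libraries to 0.044 after quantile normalization, and 0.041 and 0.018 without AU-15330 library 1 or 2. ADAMTSL4, which overlaps MCL1 on the opposite strand, averaged 1.085 in DMSO and 15.0 with AU-15330 in NCI-H929, small beside MCL1.

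**Figure D2:**
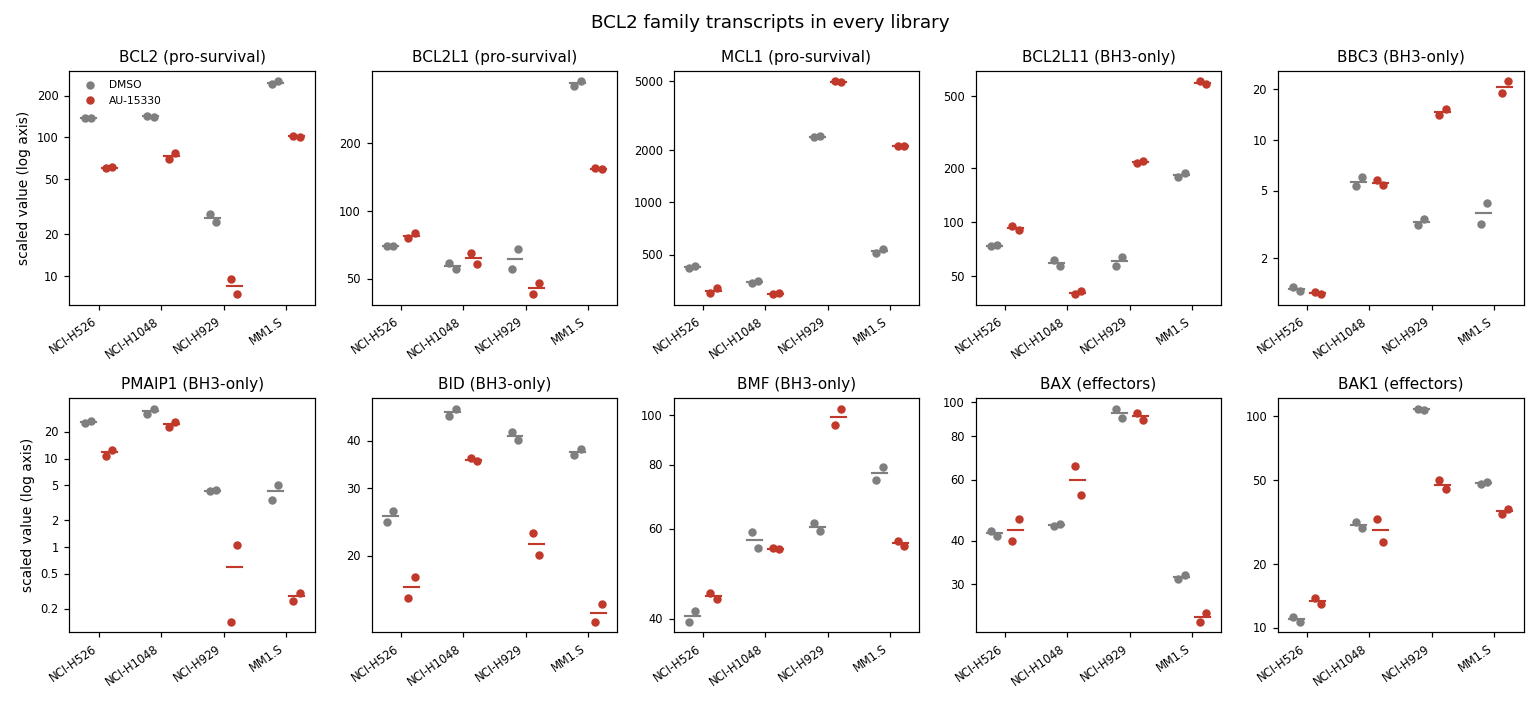
Scaled value of each member in every library (points; log axis) with the mean of the 2 libraries (line), by cell line and arm. Mean MCL1 goes from 2397 to 4986 in NCI-H929 and from 525.3 to 2125 in MM1.S. PMAIP1 reads between 0.14 and 1.05 in the treated myeloma libraries, but in those lines it was tested through its DMSO libraries alone.

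The make-up of the pro-survival pool was set out per kilobase of the annotated MANE transcript (6.881 kb for BCL2, 2.574 kb for BCL2L1, 3.95 kb for MCL1), as a share of the summed value of the 3 genes. In MM1.S, BCL2L1 held 46.0% and MCL1 42.5% in DMSO, and with AU-15330 MCL1 held 87.8%, BCL2L1 9.79% and BCL2 2.41%. The pool there went from a near-even mixture of MCL1 and BCL2L1 to one mostly of MCL1. In NCI-H929 MCL1 already held 95.6% and went to 98.5%. In the SCLC-P lines the MCL1 share stayed close, at 69.4% and 66.8% in NCI-H526 and 67.4% and 68.5% in NCI-H1048, while the BCL2 share went from 13.0% to 7.49% and from 15.8% to 9.77%. The BCL2L1 share in those lines went from 17.6% to 25.7% and from 16.9% to 21.8%. These shares are of transcript, are relative to the annotated lengths, and were given no test.

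**Figure D3:**
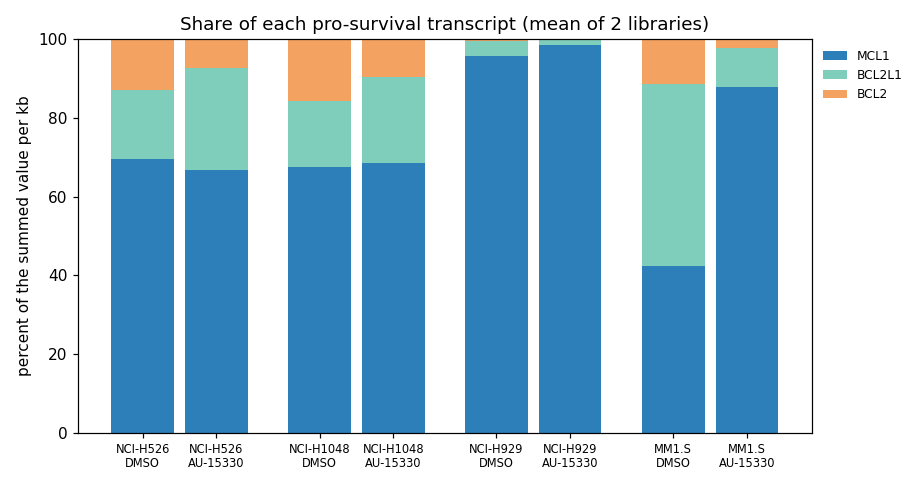
Percent of the summed per-kilobase value held by MCL1, BCL2L1 and BCL2 in each line and arm (bars, mean of 2 libraries). In MM1.S the MCL1 share goes from 42.5% to 87.8%, and in NCI-H929 it is over 95% in both arms.

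Among the BH3-only members, BCL2L11 (chromosome 2, 111119378 to 111168444, plus strand) encodes BIM, which binds every pro-survival protein of the family and can activate BAX and BAK directly. In NCI-H929 it read 57.09 and 64.29 in DMSO and 214.5 and 219.2 with AU-15330, a 3.56-fold rise (1.83 ± 0.06, adjusted p = 2.5e-12). MM1.S libraries read 179.4 and 186.7 against 605.9 and 584.5, a 3.25-fold rise (1.70 ± 0.05, adjusted p = 7e-10). Both rises sat far outside the spread of the libraries, and 4.17% and 2.73% of tested genes in the 2 lines moved up as much or more. The SCLC-P lines went opposite ways. In NCI-H526 BCL2L11 read 73.62 and 74.57 against 94.75 and 91.02 and rose 1.25-fold (0.32 ± 0.04, adjusted p = 1.1e-04), and in NCI-H1048 it read 62.00 and 57.34 against 39.68 and 41.70 and fell 1.46-fold (-0.55 ± 0.10, adjusted p = 3.5e-04).

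BBC3 (chromosome 19, 47220822 to 47232766, minus strand) encodes PUMA, a strong BH3-only killer and a classic p53 target, and per kilobase its mean was the lowest of the 10 members in the DMSO libraries of every line. NCI-H929 libraries read 3.123 and 3.393 in DMSO and 14.17 and 15.18 with AU-15330 (2.01 ± 0.17, adjusted p = 7.6e-08), or 4.04-fold higher. In MM1.S it read 3.175 and 4.257 against 18.98 and 22.25 (2.33 ± 0.14, adjusted p = 1e-07), or 5.03-fold higher, and 0.759% of tested genes had a change as high or higher. These values rest on few reads, an estimated 32 and 38 in the DMSO libraries of NCI-H929 and 198 and 202 in the treated ones, yet the arms were well apart. In NCI-H526, BBC3 read 1.352 and 1.285 against 1.254 and 1.219 (-0.07 ± 0.17, adjusted p = 0.76), and in NCI-H1048 5.321 and 6.038 against 5.812 and 5.397 (-0.02 ± 0.15, adjusted p = 0.95).

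PMAIP1 (chromosome 18, 59899996 to 59904305, plus strand) encodes NOXA, which binds MCL1 selectively and promotes its breakdown, and its values were lower in the treated libraries of all 4 lines. In NCI-H526 it read 25.42 and 26.77 in DMSO and 10.81 and 12.64 with AU-15330, a 2.18-fold fall (-1.12 ± 0.09, adjusted p = 2.1e-06). In NCI-H1048 it read 31.70 and 36.64 against 22.91 and 25.83 (-0.48 ± 0.11, adjusted p = 0.0029), a call that was lost with no filter on low genes (0.053), in 1 fit of all libraries (0.20) and without DMSO library 2 (0.13). In both lines the arms did not overlap. In NCI-H929 it read 4.294 and 4.375 against 0.1431 and 1.052, an estimated 44 and 49 reads against 2 and 14, with a log2 change of -2.27 ± 0.37 (adjusted p = 6.7e-05). MM1.S libraries read 3.432 and 5.090 against 0.2471 and 0.3058, an estimated 80 and 165 reads against 5 and 8 (-2.60 ± 0.22, adjusted p = 1.3e-06). PMAIP1 thus rested on very few reads in all 4 treated myeloma libraries. In both myeloma lines it passed the filter through its DMSO libraries alone, so a fall was built into its being tested, and the size depends on the pseudocount. With a pseudocount of 0.1 or 1 the change was -3.07 or -1.80 in NCI-H929 and -3.51 or -2.03 in MM1.S. Limma-voom on the estimated reads gave -3.33 and -3.85 in that order, and leaving out AU-15330 library 1 or 2 of NCI-H929 gave -1.64 or -2.91. These values show how far the estimate moves and add no support for a fall.

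BID (chromosome 22, 17734138 to 17774770, minus strand), the link that caspase-8 cleaves to connect death receptors with mitochondria, was lower in all 4 lines. In MM1.S it read 36.60 and 37.99 in DMSO and 13.43 and 14.93 with AU-15330, a 2.58-fold fall (-1.37 ± 0.09, adjusted p = 1.2e-07). NCI-H929 libraries read 42.16 and 40.12 against 22.90 and 20.14 (-0.92 ± 0.09, adjusted p = 4.4e-07), and in NCI-H526 24.45 and 26.23 against 15.46 and 17.58 (-0.60 ± 0.08, adjusted p = 1.0e-04). In NCI-H1048 it read 46.44 and 48.52 against 35.95 and 35.45 (-0.41 ± 0.10, adjusted p = 0.0043), which was lost without DMSO library 1 (0.065) or 2 (0.12). Arms were apart in every line.

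BMF (chromosome 15, 40087890 to 40108892, minus strand), a BH3-only protein held on the cytoskeleton until it is released, rose in one myeloma line and fell in the other. In NCI-H929 it read 61.57 and 59.29 in DMSO and 95.68 and 103.1 with AU-15330 (0.71 ± 0.06, adjusted p = 6.2e-08), and in MM1.S 74.70 and 79.34 against 56.83 and 55.57 (-0.45 ± 0.06, adjusted p = 6.7e-05). Neither line's arms overlapped. In NCI-H526 it read 39.43 and 41.37 against 44.82 and 43.65, just short of the threshold (0.13 ± 0.05, adjusted p = 0.052), and 5 alternatives called it, with adjusted p from 0.015 to 0.049. In NCI-H1048 the values were 59.03 and 55.11 against 54.92 and 54.71 (-0.06 ± 0.10, adjusted p = 0.69).

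Of the effectors, which form the pores that release cytochrome c, BAK1 (chromosome 6, 33572547 to 33580293, minus strand), which sits in the mitochondrial membrane, fell in both myeloma lines. In NCI-H929 BAK1 read 108.9 and 107.1 in DMSO and 49.80 and 45.30 with AU-15330, a 2.26-fold fall (-1.18 ± 0.06, adjusted p = 4.5e-10). MM1.S libraries read 47.96 and 48.77 against 34.64 and 36.65 (-0.44 ± 0.07, adjusted p = 1.7e-04). The arms were apart in both. In NCI-H526 it read 11.20 and 10.67 against 13.85 and 13.01 and rose slightly (0.28 ± 0.08, adjusted p = 0.014; 0.093 without DMSO library 2), and in NCI-H1048 the arms overlapped at 31.70 and 29.74 against 32.66 and 25.56 (-0.09 ± 0.12, adjusted p = 0.61), although without AU-15330 library 1 a change of -0.26 was called (0.043). The processed copies BAK1P1 and BAK1P2, between which reads could be split, averaged at most 0.322 in any group.

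BAX (chromosome 19, 48954815 to 48961798, plus strand), the cytosolic effector that moves to mitochondria, rose in NCI-H1048, from 44.21 and 44.76 to 65.57 and 54.14 (0.42 ± 0.11, adjusted p = 0.0055), a call lost with no filter (0.066) and without DMSO library 1 (0.082) or 2 (0.060). In MM1.S it fell from 31.08 and 31.87 to 23.38 and 24.73 (-0.38 ± 0.08, adjusted p = 0.001), and this was lost with total-count scaling (-0.15, adjusted p = 0.068). In both lines the arms were apart. In NCI-H526 the arms overlapped, at 42.64 and 41.40 against 40.00 and 46.06 (0.03 ± 0.07, adjusted p = 0.72; 0.13 and called at 0.028 without AU-15330 library 1). In NCI-H929 they also overlapped, at 95.99 and 90.07 against 93.35 and 89.34 (-0.03 ± 0.05, adjusted p = 0.68), and total-count scaling and quantile normalization turned this to rises of 0.20 (adjusted p = 0.0072) and 0.17 (0.017).

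The balance of the family was described by ratios within a library, with no test. The mean log2 value of the 7 pro-death members minus that of the 3 pro-survival members went up by 0.35 in NCI-H526, 0.18 in NCI-H1048 and 0.34 in NCI-H929, with arms apart, and by 0.00 in MM1.S, where the arms overlapped. Taken as medians over the members, the same differences were 0.18, 0.62, 0.14 and 0.64, which puts other lines first. In the SCLC-P lines both means went down, the pro-survival mean by more (-0.49 and -0.35, beside -0.15 and -0.17 for pro-death). In the myeloma lines the 7 pro-death members include PMAIP1 (-2.27 in NCI-H929 and -2.6 in MM1.S), tested there through its DMSO libraries alone. The size of its fall goes with the pseudocount, and the values of 0.34 and 0.00 carry that limit. The sum depends on single genes. Leaving out 1 member at a time gave 0.00 to 0.67, -0.11 to 0.42, -0.29 to 1.03 and -0.55 to 1.10 in NCI-H526, NCI-H1048, NCI-H929 and MM1.S, always lowest without BCL2, and highest without BCL2L1 in the SCLC-P lines and without MCL1 in the myeloma lines. No single direction of the balance can therefore be given for NCI-H1048, NCI-H929 or MM1.S, and in NCI-H526 the rise was gone without BCL2.

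Single pairs differed in direction. The BCL2L11 to MCL1 ratio, BIM against its main plasma cell partner, went up by 0.77 on the log2 scale in NCI-H526 and in NCI-H929, and down by 0.32 in NCI-H1048 (-0.32) and MM1.S (-0.32). In MM1.S the larger rise of MCL1 thus outran that of BCL2L11. The BBC3 to MCL1 ratio went up by 0.38, 0.21, 0.96 and 0.32 in NCI-H526, NCI-H1048, NCI-H929 and MM1.S. In the same order, the PMAIP1 to MCL1 ratio changed by -0.68, -0.25, -3.33 and -4.61, the last 2 resting on 2 to 14 treated PMAIP1 reads per library. The BCL2L11 to BCL2 ratio went up in every line, by 1.51, 0.39, 3.42 and 2.97 in that order. The arms did not overlap for any of these 4 ratios in any line. With 2 libraries per arm that is common, since 68.2% to 87.8% of single genes had arms apart, and no support is drawn from it.

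**Figure D4:**
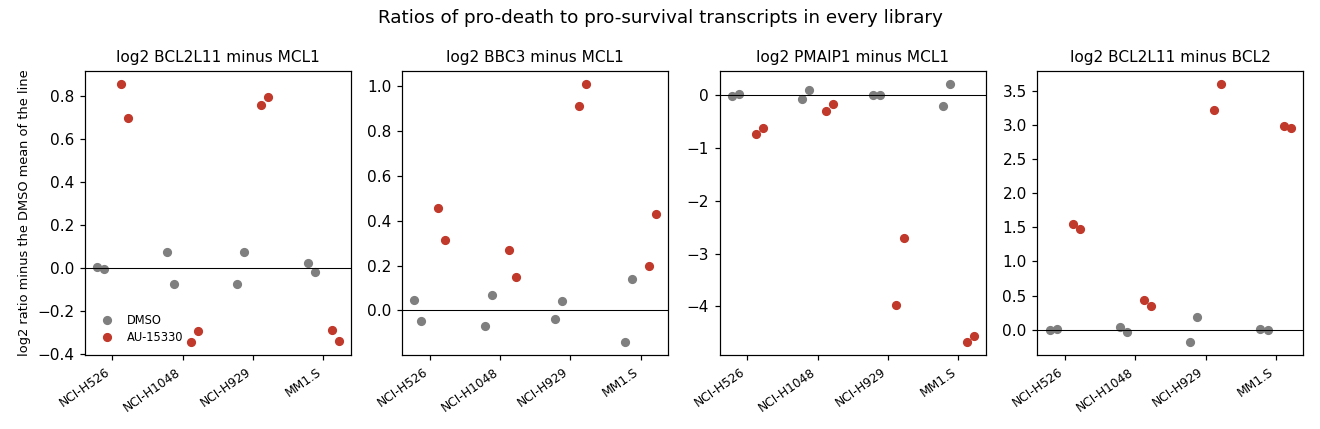
Log2 ratio of a pro-death to a pro-survival transcript in every library, minus the mean of the DMSO libraries of its line (y axis, log2 units), by line and arm. BCL2L11 against BCL2 lies above the DMSO libraries in all 4 lines, and BCL2L11 against MCL1 lies above in NCI-H526 and NCI-H929 and below in NCI-H1048 and MM1.S.

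The AU-15330 effects themselves were then contrasted between lines. Between the SCLC-P lines, 2 members differed, where 28.9% of 12544 genes did (13.4% higher in NCI-H526, 15.5% lower). The count was 4 with the replicate block, and 5 and 4 without AU-15330 library 1 or 2 of NCI-H1048. The BCL2L11 effect was higher in NCI-H526 than in NCI-H1048 by 0.87 ± 0.10 (limma, adjusted p = 6.6e-05), being a rise in one and a fall in the other, and the PMAIP1 effect was lower by 0.65, at -0.65 ± 0.15 (adjusted p = 0.0067). Between the myeloma lines, 6 members differed, 4 higher in NCI-H929 and 2 lower, where 48.3% of 12138 genes did (28.1% higher, 20.1% lower). The MCL1 effect was smaller in NCI-H929 than in MM1.S (-0.96 ± 0.06, adjusted p = 3.7e-07), BCL2L1 fell less there (0.83 ± 0.12, adjusted p = 2.2e-04), and BMF moved the opposite way (1.16 ± 0.08, adjusted p = 1.2e-06). BAK1 fell more in NCI-H929 (-0.74 ± 0.09, adjusted p = 6.4e-05), and the effects on BID (0.44) and BAX (0.36) were less negative. The effects on BCL2 (-0.31 ± 0.15), BCL2L11 (0.13 ± 0.08), BBC3 (-0.32 ± 0.22) and PMAIP1 (0.32 ± 0.51) were not shown to differ between the myeloma lines. For PMAIP1 this is a value only, since in both lines it was tested through its DMSO libraries alone.

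The mean SCLC-P effect differed from the mean myeloma effect for 9 members, 6 higher and 3 lower, where 76.1% of 11059 genes did (41.5% higher, 34.6% lower). The widest gaps were BBC3 (-0.04 against 2.17, difference -2.21 ± 0.15, adjusted p = 1.5e-09), BCL2L11 (-0.11 against 1.76, -1.88 ± 0.06, adjusted p = 6.6e-13) and MCL1 (-0.34 against 1.54, -1.87 ± 0.05, adjusted p = 1.5e-13). One of the 9 was PMAIP1 (-0.80 against -2.44), whose difference is given as a value only, since its myeloma mean comes from the lines where it was tested through its DMSO libraries alone and goes with the pseudocount (1.63, and 2.47 or 1.13 with a pseudocount of 0.1 or 1). BMF was the exception, at 0.04 against 0.13 (-0.09 ± 0.06, adjusted p = 0.18), a myeloma mean over a rise and a fall. The SCLC-P mean of BCL2L11 was likewise over a rise in NCI-H526 (0.32) and a fall in NCI-H1048 (-0.55). The 3 contrasts reuse the 4 line effects, and since MM1.S alone had ribosomal RNA depletion, line and library preparation cannot be told apart there. The error in the contrast of mean effects is the scatter of libraries within a line and arm. Its p-values do not measure how far lines of a lineage vary, so they speak for these 4 lines only.

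Levels without the degrader set the starting point. Per kilobase, MCL1 led the DMSO libraries of NCI-H526 (107.0 ± 1.77, SD, n = 2), NCI-H1048 (88.0 ± 1.46) and NCI-H929 (606.8 ± 7.0), followed by BAX (52.9, 56.0 and 117.0). In MM1.S, BCL2L1 (143.9 ± 4.38) stood above MCL1 (132.9 ± 6.01), then BAX (39.6 ± 0.70). BBC3 was last in all 4 lines, from 0.714 in NCI-H526 to 3.08 in NCI-H1048. Neighbours whose libraries overlapped were BCL2L1 and BID (22.1 and 21.8) and BMF and BCL2L11 (12.2 and 11.7) in NCI-H1048, and BCL2L11 and BCL2 (35.9 and 35.9), BID and BMF (17.1 and 16.4) and PMAIP1 and BBC3 (2.24 and 2.01) in MM1.S.

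Among the 3 poly(A) lines, the DMSO level of a gene could be tested between lines on the scaled value. Against NCI-H929, NCI-H526 was higher for 3 members and lower for 6, where 86.1% of 14567 genes were called (47.8% higher, 38.4% lower). NCI-H1048 was higher for 4 members than NCI-H929 and lower for 3, where 85.6% were called (47.7% higher, 37.9% lower). NCI-H526 was higher for 3 members than NCI-H1048 and lower for 5, where 79.8% were called (39.0% higher, 40.8% lower). The 3 contrasts share libraries. NCI-H929 had 5.66-fold more MCL1 than NCI-H526 and 6.89-fold more than NCI-H1048 (log2 -2.5 ± 0.04 and -2.78 ± 0.04; limma, adjusted p = 1.6e-09 and 1.3e-09). BAK1 was 9.49-fold and 3.48-fold higher there. BCL2 was 5.18-fold and 5.31-fold higher in the SCLC-P lines than in NCI-H929 (2.37 ± 0.06 and 2.41 ± 0.06, adjusted p = 2.4e-08 and 2.3e-08), and PMAIP1 5.50-fold and 7.15-fold higher. The myeloma line thus started with high MCL1 and BAK1 and low BCL2 and PMAIP1. Between the SCLC-P lines, BCL2 (138.3 and 141.7) and BAX (42.0 and 44.5) were not called, and NCI-H1048 had 3.39-fold more BBC3 and 2.73-fold more BAK1. Some DMSO differences depend on scaling, not all of them small. For NCI-H1048 against NCI-H929, total-count scaling turned BCL2L11 from -0.02 to 0.23 and quantile normalization turned BBC3 from 0.72 (called higher) to -0.36 (adjusted p = 0.037).

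The gene lists that follow were read against the shares of all genes called in the 4 lines, which were 29.0%, 16.9%, 38.4% and 33.9% higher and 29.8%, 18.2%, 37.6% and 40.2% lower in NCI-H526, NCI-H1048, NCI-H929 and MM1.S. Of 13 other BCL2 family genes, 9, 10, 10 and 7 were tested in NCI-H526, NCI-H1048, NCI-H929 and MM1.S, of which 2, 2, 2 and 2 rose and 2, 3, 4 and 1 fell, with medians of 0.04, -0.05, -0.13 and 0.12. Among the falls in NCI-H929 is BCL2A1 (1.946 to 0.512), named after its values were seen because it passed the filter through its DMSO libraries alone. BIK, a BH3-only protein of the endoplasmic reticulum, fell in NCI-H526 (-1.62 ± 0.15, adjusted p = 8e-06), NCI-H1048 (-1.21 ± 0.17, adjusted p = 2e-05) and NCI-H929 (-0.84 ± 0.20, adjusted p = 0.0018), and was under the filter in MM1.S. BAD, the BH3-only protein that growth factor kinases silence, rose in NCI-H526 (0.43), NCI-H1048 (0.69) and MM1.S (0.33). BNIP3L, a receptor for mitochondrial autophagy, rose from 93.5 to 181.3 in NCI-H929 (0.95 ± 0.05, adjusted p = 4.4e-10) and from 28.8 to 90.8 in MM1.S (1.65 ± 0.10, adjusted p = 8.2e-08). BCL2L12 rose in NCI-H526 (0.42) and NCI-H1048 (0.65) and fell in NCI-H929 (-0.50), and BCL2L2, which encodes the pro-survival BCL-w, rose in NCI-H929 (0.67). BNIP3 (-0.78) fell in NCI-H929, BOK in NCI-H526 (-0.57) and NCI-H1048 (-0.33), and HRK in NCI-H1048 (-0.73) and MM1.S (-0.60), while BCL2L13 was not called in MM1.S (0.12 ± 0.06, adjusted p = 0.09).

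Downstream of the mitochondrion, the apoptosome and caspase list of 11 genes had 5, 0, 3 and 2 rises and 3, 1, 8 and 8 falls in the 4 lines (beside 37.6% and 40.2% of all genes lower in the myeloma lines), with medians of 0.00, 0.09, -0.61 and -0.61. APAF1, the scaffold of the apoptosome, rose in NCI-H929 (17.5 to 43.9, 1.31 ± 0.09, adjusted p = 9.1e-09) and MM1.S (12.1 to 28.6, 1.21 ± 0.09, adjusted p = 2.9e-07), whereas CYCS, its ligand cytochrome c, fell from 468.2 to 109.4 (-2.09 ± 0.04) and from 254.7 to 58.4 (-2.11 ± 0.06). Scaffold and ligand thus moved apart in both myeloma lines. In NCI-H526 both rose (0.44 and 0.45), and in NCI-H1048 APAF1 fell (-0.62) and CYCS was not called (0.12). CASP9, the initiator that APAF1 recruits, rose in NCI-H929 (0.73) and MM1.S (1.21) and fell in NCI-H526 (-0.36). ENDOG, a mitochondrial nuclease, fell in NCI-H929 (-0.61) and MM1.S (-1.22) and rose in NCI-H526 (0.26), and HTRA2, which blocks inhibitors of apoptosis, fell in NCI-H929 (-1.07) and MM1.S (-0.67). Among the 7 inhibitor of apoptosis genes, 5, 6, 6 and 6 were tested, 2, 2, 3 and 4 rose and 0, 1, 1 and 1 fell (medians 0.06, 0.11, 0.43 and 0.64). BIRC3, which encodes cIAP2, rose from 174.4 to 835.4 in MM1.S (2.26 ± 0.06, adjusted p = 2.9e-10), and also rose in NCI-H526 (0.45) and NCI-H929 (0.99). BIRC5, or survivin, fell from 85.6 to 23.1 in NCI-H929 (-1.87 ± 0.08, adjusted p = 3.7e-11) and fell in MM1.S (-0.58), but rose in NCI-H1048 (0.55 ± 0.10, adjusted p = 1.9e-04). NAIP rose in both myeloma lines (1.71 and 1.30); copies of this gene make its value uncertain.

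**Figure D5:**
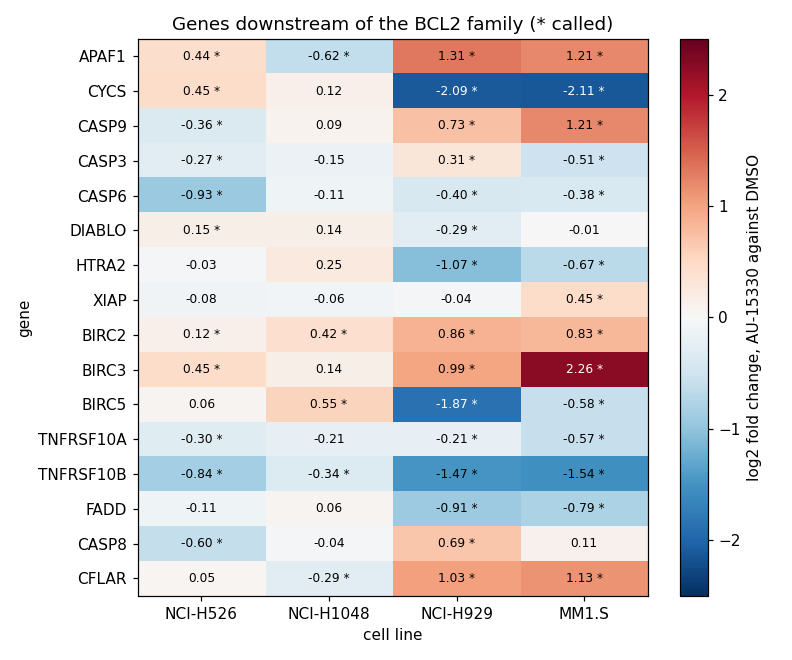
Log2 fold change of genes downstream of the BCL2 family, AU-15330 against DMSO, by line (color and number; a star marks a call). APAF1 and CFLAR rise and CYCS falls in both myeloma lines, TNFRSF10B falls in all 4 lines, and APAF1 and CFLAR fall and BIRC5 rises in NCI-H1048.

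In the death receptor list of 14 genes, which reaches the family through BID, 10, 10, 13 and 12 were tested, 3, 1, 5 and 4 rose and 5, 3, 3 and 5 fell (medians -0.20, -0.12, 0.18 and -0.12). TNFRSF10B, a TRAIL receptor, fell in all 4 lines (-0.84 ± 0.08, -0.34 ± 0.10, -1.47 ± 0.06 and -1.54 ± 0.09). CFLAR, whose product FLIP blocks caspase-8, rose in both myeloma lines (1.03 ± 0.04 and 1.13 ± 0.05) and fell in NCI-H1048 (-0.29). TNFRSF1A, a TNF receptor, fell in NCI-H526 (2.01-fold), NCI-H1048 (-0.32) and MM1.S (-1.29). Among 8 turnover and docking partners, 4, 1, 2 and 2 rose and 1, 1, 5 and 5 fell (medians 0.13, -0.06, -0.21 and -0.28). USP9X, the deubiquitinase that stabilizes MCL1, rose in NCI-H929 from 180.6 to 394.3 (1.12 ± 0.04, adjusted p = 1.2e-11) and also in MM1.S (0.45). DYNLL1, a dynein light chain to which BIM docks, fell in NCI-H929 (-0.27) and MM1.S (-1.11) and rose in NCI-H526 (0.21) and NCI-H1048 (0.46).

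Transcription factors with targets in the family were listed as 13 genes, of which 11, 13, 12 and 12 were tested, 3, 2, 4 and 5 rose and 4, 4, 3 and 6 fell (medians -0.11, 0.06, -0.06 and -0.03). FOXO3, a factor with BIM and PUMA among its targets, rose in NCI-H929 from 317.6 to 683.2 (1.10 ± 0.04, adjusted p = 2.9e-12) and fell in NCI-H1048 (-0.48). It was not called in MM1.S (0.15 ± 0.06) or NCI-H526 (-0.11 ± 0.05). STAT3 rose in NCI-H929 (0.88) and MM1.S (1.20), and DDIT3, or CHOP, in all 4 lines (0.45, 0.37, 0.77 and 1.62). FOXO1 rose in NCI-H929 (0.59) and MM1.S (2.01-fold), and in NCI-H526, where it passed the filter through its treated libraries alone, it read 0.644 and 2.085 on average. E2F1 fell in NCI-H526 (-0.32), NCI-H929 (-1.58) and MM1.S (-1.49). MYC fell in NCI-H1048 (-2.22), NCI-H929 (-2.97) and MM1.S (-5.09), JUN fell in NCI-H526 (-1.09) and rose in MM1.S (0.49), and TP73 fell in NCI-H526 (-0.68) and MM1.S (-1.97). The p53 target list outside the family held 10 genes, of which 9 were tested in each line, with 4, 1, 6 and 7 rises and 2, 3, 3 and 2 falls (medians 0.12, -0.07, 0.92 and 0.44). Its members moved apart, as CDKN1A, the p53 target p21, fell in all 4 lines (-0.70, -1.37, -1.98 and -2.63), and AEN fell in NCI-H929 (-0.91) and MM1.S (-1.44) and rose in NCI-H526 (0.12). FDXR rose in NCI-H1048 (1.49), NCI-H929 (1.68) and MM1.S (1.03), SESN1 in both myeloma lines (2.4 and 1.44), and TP53INP1 in NCI-H526 (0.28), NCI-H929 (1.24) and MM1.S (0.44). The 7 ATF4 and CHOP targets had 2, 1, 1 and 3 rises and 1, 2, 3 and 3 falls (medians -0.07, -0.12, -0.09 and 0.22). DDIT4, an mTOR inhibitor, fell in NCI-H526 (-0.68) and NCI-H1048 (-1.64) and rose in NCI-H929 (1.15) and MM1.S (1.67), ATF3 fell in NCI-H1048 (-1.18) and MM1.S (-1.82), and TRIB3 in NCI-H929 (-1.16) and MM1.S (-0.90). CHAC1 fell in NCI-H929 (-1.15) and rose in NCI-H526 (0.61).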

How the data were processed

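RNA was measured in 16 libraries, 2 per line and arm. Per the submitters' processing notes and the study's methods, the authors pseudoaligned paired reads with kallisto to hg38 and used edgeR and limma; their annotation release is not given in the sources used here. Although the name of the table says CPM, library totals were 0.829 to 1.19 M (M, 1e+06). The deposited values were read as a signal scaled by the authors to effective library sizes; this is inferred, and the design had assumed CPM. Between 75.1% and 80.2% of low values (up to 20 steps) lay within 0.1 of a whole step, a step being what 1 read is worth in a library, so whole reads were not recovered and no count model was the main test. Depth and reads per gene are estimates from the step and were 12.0 to 43.0 M per library. kallisto can split reads between copies, and sums over transcripts hide isoforms.

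A separate limma-trend model (limma 3.58.1, R 4.3.3; two-sided) was used for every line on log2(value + 0.5), with genes of a mean of at least 1 over its 4 libraries, Benjamini-Hochberg adjustment over all genes tested and a threshold of 0.05. This scale understates changes of low genes. All 10 members were tested in every line. Line effects were contrasted in 1 fit of the lines concerned, and DMSO levels in 1 fit of the 6 DMSO libraries of NCI-H526, NCI-H1048 and NCI-H929. The model within a line was also run on simulated counts that had the same spread setting for every gene, unlike the deposited values. The contrasts between lines and of DMSO levels were not simulated, and no support is drawn from that run. The study calls the SCLC-P libraries biological replicates; the labels do not say that the 2 libraries of a group came from separate cultures, so p-values reflect only how far these libraries differed, which may be technical. Coordinates are from GENCODE release 44 of GRCh38 and count from 1.

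The members and lists were chosen with earlier results of these data known. Named genes were the 10 members, up to 4 genes per line with the smallest adjusted p of the other BCL2 family list, and, of each other list, genes called with a mean of at least 5 and an absolute log2 change of at least 1; 1 gene that met this rule is not reported here. Alternatives were other pseudocounts, filters, scalings, 1 fit of all libraries, no variance trend, limma-voom on estimated reads, a replicate block and leaving out each library. Same-numbered libraries deviated together with correlations of 0.01, 0.22, -0.01 and -0.14 in NCI-H526, NCI-H1048, NCI-H929 and MM1.S, and the labels give no shared batch, so the numbers were not taken to pair the samples.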

Additional observations from a re-analysis of the deposited data

Results flagged for a closer look

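Each value here is a difference between AU-15330 effects (log2) that passed the limma test of the difference itself, except where said otherwise, and none was given an explanation. Between NCI-H526 and NCI-H1048, the effect on BCL2L11 differed by 0.87 and that on PMAIP1 by -0.65. Between NCI-H929 and MM1.S, the effects differed for BCL2L1 (0.83), MCL1 (-0.96), BID (0.44), BMF (1.16), BAX (0.36) and BAK1 (-0.74). Between the mean SCLC-P and the mean myeloma effect they differed for BCL2 (0.37), BCL2L1 (0.98), MCL1 (-1.87), BCL2L11 (-1.88), BBC3 (-2.21), BID (0.64), BAX (0.43) and BAK1 (0.91). The PMAIP1 difference there (1.63) is a value only, since in both myeloma lines the gene passed the filter through its DMSO libraries alone. BMF and BCL2L11 are the members that rose in one line and fell in another line of the same lineage. The cause was not tested. Between NCI-H929 and MM1.S, which share a lineage, line and library preparation cannot be told apart. Between the mean effects, lineage, line and library preparation cannot be told apart. The test of the mean effects measured how far libraries of a line differed, not how far lines of a lineage vary.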

How the results depend on the processing

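Of 40 member and line combinations 31 were called, and 25 of these calls held under every alternative run. Among the 25 is PMAIP1 in both myeloma lines, where a fall was built into its being tested, so its holding there supports nothing. The filter at a mean of 5 gave no value for it in either line. In NCI-H1048, 5 members and 4808 genes were called, but 3 and 2810 with no filter, and 2 to 7 members and 2248 to 6503 genes when 1 library was left out, the fewest without a DMSO library. The contrast of NCI-H526 with NCI-H1048 called 2 members, 4 with the replicate block, and 2 to 5 members and 2303 to 5433 genes (3623 in all libraries) when 1 library was left out. The block changed no other count of calls by over 1.5 times; with MM1.S libraries crossed (chosen after seeing the data), 10 members and 10535 genes were called, against 10253. The balance in NCI-H526 was 0.34 and 0.35 with pseudocounts of 0.1 and 1, 0.37 after quantile normalization and 0.18 as a median over members; the median gave 0.62 in NCI-H1048, 0.14 in NCI-H929 and 0.64 in MM1.S, where the pseudocounts gave -0.12 and 0.07 and quantile normalization -0.05. Some signs turned. In the DMSO contrast of NCI-H1048 with NCI-H929, total-count scaling gave 0.15 for BCL2L1, 0.23 for BCL2L11 and 0.17 for BMF, and quantile normalization -0.36 for BBC3 (0.72 as reported); leaving out 1 library gave -0.25 to 0.04 for BCL2L1 and -0.11 to 0.06 for BCL2L11. Quantile normalization gave 0.09 and 0.10 for BBC3 in NCI-H1048 and NCI-H526, 0.17 for BAX in NCI-H929 (total-count scaling 0.20), and, in the contrast of NCI-H929 with MM1.S, -0.16 for BCL2L11 and -0.09 for PMAIP1 (0.32 as reported). Leaving out 1 library gave -0.10 to 0.07 for BBC3 and -0.26 to 0.09 for BAK1 in NCI-H1048, -0.07 to 0.13 for BAX in NCI-H526, -0.07 to 0.02 for BAX in NCI-H929, -0.04 to 0.13 for BCL2L1 and -0.13 to 0.03 for BBC3 between the SCLC-P lines, and -0.31 to 0.96 for PMAIP1 between the myeloma lines. The cause of these shifts was not tested. Where 1 library was left, it was assumed to vary like the others. A filter at a mean of 5 gave no value for members under it. Total-count scaling also moved the higher share of all calls from 54.5% to 41.4% between lineages and from 46.4% to 56.6% between the SCLC-P lines. With 2 libraries per group, small changes and genes of few reads, such as PMAIP1 in the myeloma lines, are the least certain.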
